A study of Mus musculus with 15 samples.

Results

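The genes examined were the subunits of the glutamate and GABA receptors of the mouse brain. They were the gene symbols of the RNA-seq table that begin with *Gria*, *Grik*, *Grin*, *Grid* or *Grm* and a digit, and those that begin with *Gabr* and a letter. The rule found 45 of the 23235 genes of the table: 18 ionotropic glutamate receptor genes, 8 metabotropic glutamate receptor genes and 19 GABA-A receptor genes. All 45 had a match in the annotation, and none was an antisense transcript. The excitatory ionotropic genes were contrasted with the inhibitory GABA-A genes.

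Transcripts were measured by RNA-seq in dissected cortex of adult WT C57BL/6J mice and of adult *Snord116del* (+/-) mice of the strain B6(Cg)-Snord116tm1.1Uta/J. These carry a deletion of the *Snord116* snoRNA cluster on the paternal chromosome, a model of Prader-Willi syndrome, and were compared with WT littermates, all of them male. Cortices were taken at Zeitgeber time (Zt, hours after lights on) +6 from 3 WT and 2 *Snord116del* mice, and at Zt +16 from 2 WT and 2 *Snord116del* mice. The table gives 1 FPKM value (fragments of a gene scaled by transcript length and by the mapped fragments of the library) per gene and group. No value per mouse was analysed here, so no difference below has a standard deviation or a P-value, and every count is a description of these 4 group values. The cortex holds many cell types, and fewer cells of a type and less RNA per cell cannot be told apart. The level of the deleted RNAs was not analysed here, so the genotype labels were not checked against the deleted locus. For the *116HG* host gene RNA itself, ChIRP-seq peak lists of adult brain were used: 2 WT libraries with oligos against *116HG*, and as controls 1 WT library with non-specific control (NSC) oligos and 1 *Snord116del* library with each oligo set.

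Glutamate is the main excitatory transmitter of the cortex and GABA the main inhibitory one. Ionotropic glutamate receptors are cation channels built of subunits from the AMPA, kainate, NMDA or delta family, while metabotropic glutamate receptors act through G proteins. GABA-A receptors are chloride channels, most of which join alpha and beta subunits with a gamma or a delta subunit. Which subunit is built in sets where the receptor sits and how fast it opens and closes, and so the share of each subunit within its family is of interest beside its level.

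Whether the *116HG* RNA was recovered with the DNA of receptor genes was examined first. ChIRP (chromatin isolation by RNA purification) pulls an RNA out of cross-linked chromatin with complementary biotinylated oligos, together with the DNA bound to it. A peak of WT *116HG* replicate 1 was counted as replicated when a replicate 2 peak lay within 10 kb, and was assigned to a gene when it lay inside the gene or within 2 kb of it. Such a peak was found at 11 of the 45 receptor genes (24.4%), against 10.9% of all annotated genes of the table and 18.0% of the genes averaging 1 FPKM or more. The 11 included *Gabra3*, *Gabra5*, *Gabrd* and *Gabrg3* among the GABA-A genes, *Gria1*, *Gria4* and *Grik1* among the ionotropic genes, and *Grm7* and *Grm8* among the metabotropic genes. Receptor genes are long: their median locus was 135 kb, against 16.2 kb for all annotated genes, and the part of locus length in this share was not tested. The share depends on the distance allowed between replicates, with 6 receptor genes (13.3%, against 3.33% of all annotated genes) where the peaks of both replicates overlap and 19 (42.2%, against 27.1%) within 50 kb.

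At 6 genes the replicates overlapped directly, in 8 peak pairs, and these are the places where the 2 WT *116HG* libraries gave the same position within a receptor gene. Their sequences are printed here in the direction of the gene because they share a feature: each lies in an intron, overlaps no annotated exon, and holds an uninterrupted run of a single base, A or T. Positions are in mm9, the whole replicate 1 and 2 peak region is shown, and capitals mark the bases covered by both replicates.
*Gabra3*, chrX:69833748-69833905, minus strand: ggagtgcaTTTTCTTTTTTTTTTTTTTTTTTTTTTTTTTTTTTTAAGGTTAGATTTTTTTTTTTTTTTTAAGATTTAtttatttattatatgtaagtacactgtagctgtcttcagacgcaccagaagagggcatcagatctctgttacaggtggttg
*Gabrg3*, chr7:64061106-64061338, minus strand: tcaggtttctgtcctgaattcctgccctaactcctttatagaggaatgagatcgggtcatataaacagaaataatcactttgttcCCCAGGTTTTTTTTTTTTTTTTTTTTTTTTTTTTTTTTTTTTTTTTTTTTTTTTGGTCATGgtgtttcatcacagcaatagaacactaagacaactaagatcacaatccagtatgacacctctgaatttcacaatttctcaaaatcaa
*Gabrg3*, chr7:64156791-64156890, minus strand: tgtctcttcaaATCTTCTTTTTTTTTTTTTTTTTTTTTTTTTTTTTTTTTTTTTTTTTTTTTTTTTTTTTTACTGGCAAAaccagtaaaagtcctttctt
*Gria1*, chr11:56924929-56925061, plus strand: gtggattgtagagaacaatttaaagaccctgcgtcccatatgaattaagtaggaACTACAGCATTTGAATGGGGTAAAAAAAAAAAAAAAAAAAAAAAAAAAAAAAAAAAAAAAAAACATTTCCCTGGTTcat
*Grik1*, chr16:88023180-88023264, minus strand: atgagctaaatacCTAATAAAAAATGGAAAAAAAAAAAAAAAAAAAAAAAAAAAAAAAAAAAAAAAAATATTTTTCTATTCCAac
*Grm7*, chr6:110599018-110599219, plus strand: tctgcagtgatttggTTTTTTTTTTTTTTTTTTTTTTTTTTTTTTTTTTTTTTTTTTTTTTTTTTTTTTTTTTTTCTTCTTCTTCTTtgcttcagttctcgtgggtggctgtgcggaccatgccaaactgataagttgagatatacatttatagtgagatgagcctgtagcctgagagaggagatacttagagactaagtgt
*Grm7*, chr6:111419345-111419469, plus strand: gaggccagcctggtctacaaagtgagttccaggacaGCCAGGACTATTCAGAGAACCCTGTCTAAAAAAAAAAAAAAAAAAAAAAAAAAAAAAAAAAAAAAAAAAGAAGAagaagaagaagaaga
*Grm8*, chr6:27942253-27942337, minus strand: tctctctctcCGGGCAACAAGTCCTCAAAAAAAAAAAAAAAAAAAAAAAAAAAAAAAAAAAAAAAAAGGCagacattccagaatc
The longest run was 60 T in *Grm7*, a presynaptic glutamate receptor, and the shortest was 31 T in *Gabra3*. In the direction of transcription the run was of T at *Gabra3*, at both *Gabrg3* sites and at 1 *Grm7* site, and of A at *Gria1*, *Grik1*, *Grm8* and the other *Grm7* site. For 5 of the 8, the middle 32 bases are found 9439 times in the mm9 genome, counted on both strands without overlapping matches. The middle bases of the *Gabra3* site are found 1 time, those of the second *Grm7* site 52 times and those of *Grm8* 1662 times.

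Runs of at least 20 A or T bases were then counted under the other peaks, since the 8 sites are those in which the feature was noticed. A peak was placed in an exon, an intron or the flank by its midpoint. Place and overlap went together at receptor genes. The 8 directly overlapping replicate 1 peaks were all intronic, and the other 17 replicated ones all lay on exons and had 0 runs (which allows up to 19.5%), so that the contrast between them is also one of intron and exon. Among the 186 intronic replicate 1 peaks with no direct overlap, 26 had a run (14.0%, exact 95% binomial interval 9.34 to 19.8%), against 1 of 312 exon peaks (0.321%).

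Over the whole genome, a run lay under 85.7% of 1869 directly overlapping replicate 1 peaks, under 8.17% of 6169 other replicated peaks and under 7.80% of 69581 peaks that were not replicated. In replicate 2 these shares were 85.2%, 27.3% and 19.3%. Over whole lists, the share was 9.70% in replicate 1 and 32.6% in replicate 2, against 4.50% with NSC oligos on WT brain, and on *Snord116del* brain 0.236% with *116HG* oligos and 0.471% with NSC oligos. Intron and exon were not separated in these lists, the intervals cover counting error over peaks only, and each control is 1 library.

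The remaining peaks at receptor genes differed between the replicates. Replicate 1 had 542 peaks at 39 of the 45 receptor genes (86.7%), against 59.3% of all annotated genes and 93.6% of the genes averaging 1 FPKM or more. Replicate 2 had 26 peaks at 18 of them (40.0%), against 13.9% and 17.5%. WT NSC had 5 peaks at 3 receptor genes, *Snord116del* *116HG* had 10 peaks at 10 and *Snord116del* NSC had 16 peaks at 8 (6.67%, 22.2% and 17.8%), against 2.30%, 2.26% and 7.88% of all annotated genes. Of the replicate 1 peaks, 312 (57.6%) had their midpoint in an exon, although exons make up 2.25% of these loci, and 111 of the 312 began and ended within 20 bases of the ends of an exon. This count depends on the tolerance, which was chosen after the values were seen, with 51 peaks within 10 bases and 127 within 30. No replicate 2 peak overlapped an exon, and 25 of 26 were intronic. *Grin1*, which encodes the NMDA subunit that every NMDA receptor needs, and *Grin2b*, a glutamate-binding NMDA subunit, had the highest number of exon peaks in replicate 1, with 21 each, followed by *Gria2* with 19. Across the 45 genes, which share a library and its depth, the number of exon peaks of replicate 1 had a Spearman rho of 0.876 with the FPKM of the gene in WT cortex at Zt +6. Replicate 2 peaks had a rho of 0.032 with that FPKM and of 0.703 with the length of the locus.

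**Figure D1:**
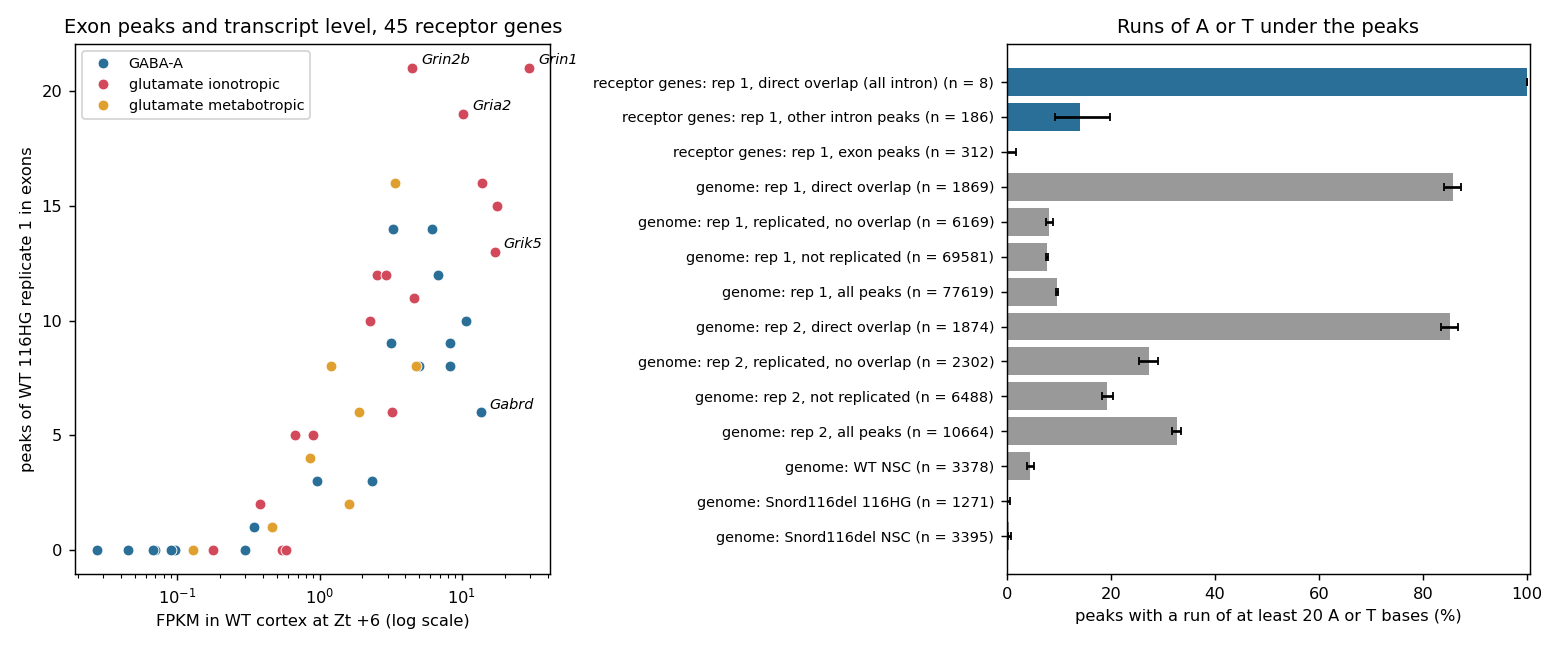
Left, number of WT *116HG* replicate 1 peaks in exons (y) against FPKM in WT cortex at Zt +6 (x, log scale) for the 45 receptor genes, coloured by class. Right, percentage of peaks with a run of at least 20 A or T bases, at receptor genes (blue) and in the genome (grey), with exact 95% binomial intervals except for the 8 peaks in which the runs were noticed. Directly overlapping peaks in the genome had a run in 85.7% (replicate 1) and 85.2% (replicate 2), and other intron peaks of replicate 1 at receptor genes in 14.0%.

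Replicated peaks at the extrasynaptic subunit gene *Gabrd* were of the exon kind. It had 5 replicate 1 peaks within 10 kb of a replicate 2 peak, all on exons, while no replicate 2 peak lay at the gene itself. Among receptor genes averaging 1 FPKM or more, the median log2 fold change of *Snord116del* against WT at Zt +6 was 1.17 over the 10 with a replicated peak and 1.46 over the other 21. Of these, 3 of the 10 and 2 of the 21 reached that average only through their level in *Snord116del* at Zt +6. With all receptor genes in the medians the order turned, at 1.13 over the 11 with a replicated peak and 0.95 over the 34 without.

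Levels in WT cortex were described next. FPKM is scaled by transcript length, and levels of genes are set side by side here on that scale. Differences between groups were still related to length, with a Spearman rho of 0.628 at Zt +6 between genotypes over all tested genes. Comparisons between genes of unequal length are limited by this. At Zt +6 the 18 ionotropic genes summed to 113 FPKM, the 8 metabotropic genes to 14.3 and the 19 GABA-A genes to 69.4. *Grin1* was the highest of all at 29.6 FPKM. It was followed by the AMPA subunit gene *Gria3* at 17.6, the kainate subunit gene *Grik5* at 17.0, *Gria1* at 13.8 and *Gabrd* at 13.5. The highest metabotropic gene was *Grm3*, a receptor that lowers cyclic AMP in neurons and astrocytes, at 4.77 FPKM. Of the 45 genes, 31 averaged 1 FPKM or more over the 4 groups and entered the counts below. The other 14, among them *Gabra6*, *Gabre*, *Gabrg1*, *Gabrp*, *Gabrq*, *Gabrr1*, *Gabrr2*, *Gabrr3*, *Grik1*, *Grin2d*, *Grin3b*, *Grm4* and *Grm6*, lay between 0 and 1.84 FPKM in every group. Among these are *Gabra6*, which is known from cerebellar neurons, and the rho subunits known from retina. *Grin3a*, *Grik4*, *Grm7* and *Gabrg3* were among the 5 genes that passed the mean only through their level in *Snord116del* at Zt +6.

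**Figure D2:**
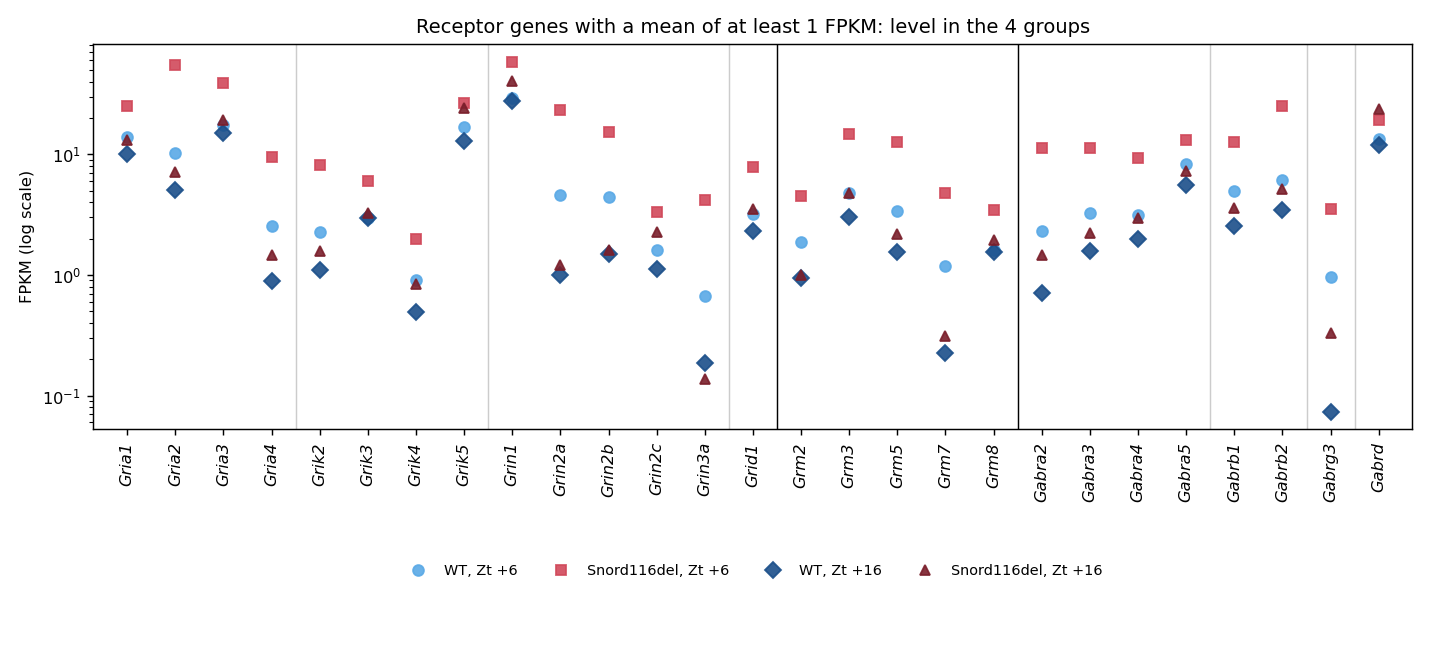
FPKM (y, log scale) of 27 of the 31 receptor genes that averaged 1 FPKM or more, in the 4 groups, 1 value per group with no error. Black lines separate ionotropic glutamate, metabotropic glutamate and GABA-A genes and grey lines their families. The *Snord116del* value at Zt +6 is the highest of the 4 for every gene shown but *Gabrd*.

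At Zt +6, in the light phase, 30 of the 31 receptor genes were higher in *Snord116del* than in WT by the fold rule and 0 were lower. The rule calls a gene when FPKM + 1 differs at least 1.5-fold and the higher group reaches 1 FPKM, and all fold changes are log2 ratios of FPKM + 1. Among all 10297 genes tested, 49.3% were called higher and 7.62% lower, so the direction was common in the table. Within it, 30 of the 31 receptor genes were above the median of all tested genes, which was 0.57. Without the 5 genes that passed the filter through this group, 25 of 26 were called higher, against 44.0% of all genes tested with the filter so changed. All 14 ionotropic genes, all 6 metabotropic genes and 10 of 11 GABA-A genes were called, with medians of 1.09, 1.26 and 1.53. With the groups scaled to the same median, 18 of the 31 were called higher, against 15.0% of all tested genes. Of the 30 called before this scaling, *Gabra5* and *Grik5* then had lower values in *Snord116del* than in WT. The gene not called before this scaling was *Gabrd*, at 13.5 FPKM in WT and 19.3 in *Snord116del*, a log2 fold change of 0.48.

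Among the AMPA receptor genes, which carry most fast excitation, *Gria2* showed the largest difference of all 31. At Zt +6 its FPKM was 10.2 in WT against 55.4 in *Snord116del*, and at Zt +16 it was 5.07 against 7.14. The log2 fold changes were 2.33 and 0.42. Its product keeps calcium out of AMPA receptors once the transcript is edited. In each pair of values here and below, WT comes first. *Gria4* was at 2.55 and 9.58 FPKM at Zt +6 and at 0.898 and 1.47 at Zt +16. *Gria3* was at 17.6 and 39.4 FPKM at Zt +6 and at 14.9 and 19.2 at Zt +16. *Gria1*, whose subunit is added to synapses during potentiation, differed least in the family, with 13.8 and 25.4 FPKM at Zt +6 and 10.0 and 13.2 at Zt +16. The 4 genes thus kept 1 direction at Zt +6 but by unequal amounts, from 0.83 for *Gria1* to 2.33 for *Gria2*.

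The NMDA receptor genes spread in the same way. *Grin2a*, the glutamate-binding subunit that becomes prominent as the cortex matures, stood at 4.60 FPKM in WT against 23.4 in *Snord116del* at Zt +6, and at 0.990 against 1.21 at Zt +16. *Grin2b*, its counterpart in early life, was at 4.46 and 15.4 FPKM at Zt +6 and at 1.49 and 1.62 at Zt +16. *Grin1*, the obligatory subunit, was at 29.6 and 58.8 FPKM at Zt +6 and at 27.7 and 40.4 at Zt +16. The genes of the glutamate-binding GluN2 subunits A and B therefore stood further apart between genotypes at Zt +6 (2.13 and 1.59) than the gene of the subunit they pair with (0.97). *Grin3a*, a modulatory subunit gene, was at 0.673 and 4.21 FPKM at Zt +6, while at Zt +16 both groups were below 1 FPKM (0.187 and 0.137). *Grin2c* was at 1.62 and 3.29 FPKM at Zt +6 and at 1.12 and 2.25 at Zt +16.

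Kainate receptor genes, whose products tune transmitter release and slower currents, were the least changed ionotropic family at Zt +6, with a median log2 fold change of 0.74. *Grik2* was at 2.26 and 8.13 FPKM at Zt +6 and at 1.09 and 1.59 at Zt +16. *Grik3* was at 2.94 and 6.01 FPKM at Zt +6 and at 2.97 and 3.26 at Zt +16. *Grik5*, which encodes a high-affinity subunit that needs a partner such as that of *Grik2*, was at 17.0 and 26.6 FPKM at Zt +6 and at 13.0 and 24.1 at Zt +16. It lay just above the 1.5-fold limit at Zt +6, at 0.62, and was further apart at Zt +16, at 0.84. *Grik4* was at 0.900 and 2.00 FPKM at Zt +6 and at 0.495 and 0.841 at Zt +16. Of the delta receptor genes, *Grid1* was at 3.21 and 7.78 FPKM at Zt +6 and at 2.30 and 3.54 at Zt +16.

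All 6 tested metabotropic genes were called higher at Zt +6, where 49.3% of all tested genes were. Of the 6, 2 passed the filter only through *Snord116del* at Zt +6, which favoured that call. *Grm5*, which couples to calcium release and is abundant in cortical neurons, was at 3.40 and 12.7 FPKM at Zt +6 and at 1.56 and 2.20 at Zt +16. *Grm3* was at 4.77 and 14.8 FPKM at Zt +6 and at 3.00 and 4.80 at Zt +16. The larger differences were thus found for genes of both G protein classes, receptors that raise calcium and receptors that lower cyclic AMP. *Grm2*, the close relative of *Grm3*, was at 1.88 and 4.55 FPKM at Zt +6 and at 0.943 and 1.01 at Zt +16. *Grm7* was at 1.19 and 4.74 FPKM at Zt +6 and at 0.223 and 0.315 at Zt +16. *Grm8*, another presynaptic receptor, was at 1.62 and 3.43 FPKM at Zt +6 and at 1.55 and 1.95 at Zt +16.

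The GABA-A alpha subunits hold part of the GABA and benzodiazepine binding sites. *Gabra2*, often placed at the axon initial segment, was at 2.32 and 11.2 FPKM at Zt +6 and at 0.710 and 1.46 at Zt +16. *Gabra3* was at 3.26 and 11.3 FPKM at Zt +6 and at 1.59 and 2.24 at Zt +16. These genes and *Gabra4*, at 3.15 and 9.24 FPKM at Zt +6 and at 2.00 and 2.97 at Zt +16, had log2 fold changes of 1.30 to 1.88 at Zt +6. *Gabra5*, an extrasynaptic subunit gene, was just past the limit at 0.61, with 8.26 and 13.1 FPKM at Zt +6 and 5.58 and 7.23 at Zt +16.

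The beta subunits complete the GABA site. *Gabrb2* was at 6.18 and 25.1 FPKM at Zt +6 and at 3.47 and 5.21 at Zt +16. *Gabrb1* was at 5.00 and 12.6 FPKM at Zt +6 and at 2.56 and 3.59 at Zt +16. On the log2 scale they differed between genotypes by 1.86 and 1.18 at Zt +6.

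*Gabrg3* (chr7:63971835-64642558, mm9) and *Gabra5* (chr7:64663060-64765379) lie on chromosome 7 beside the Prader-Willi domain that holds *Snord116*. *Gabrg3* was at 0.953 and 3.52 FPKM at Zt +6 and at 0.073 and 0.330 at Zt +16. Both were called higher at Zt +6, at 1.21 for *Gabrg3* and 0.61 for *Gabra5*, and neither was called at Zt +16. *Gabrg3* passed the filter only through *Snord116del* at Zt +6, which favoured its call there. At Zt +16 it could not be called, since both of its values were below 1 FPKM.

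**Figure D3:**
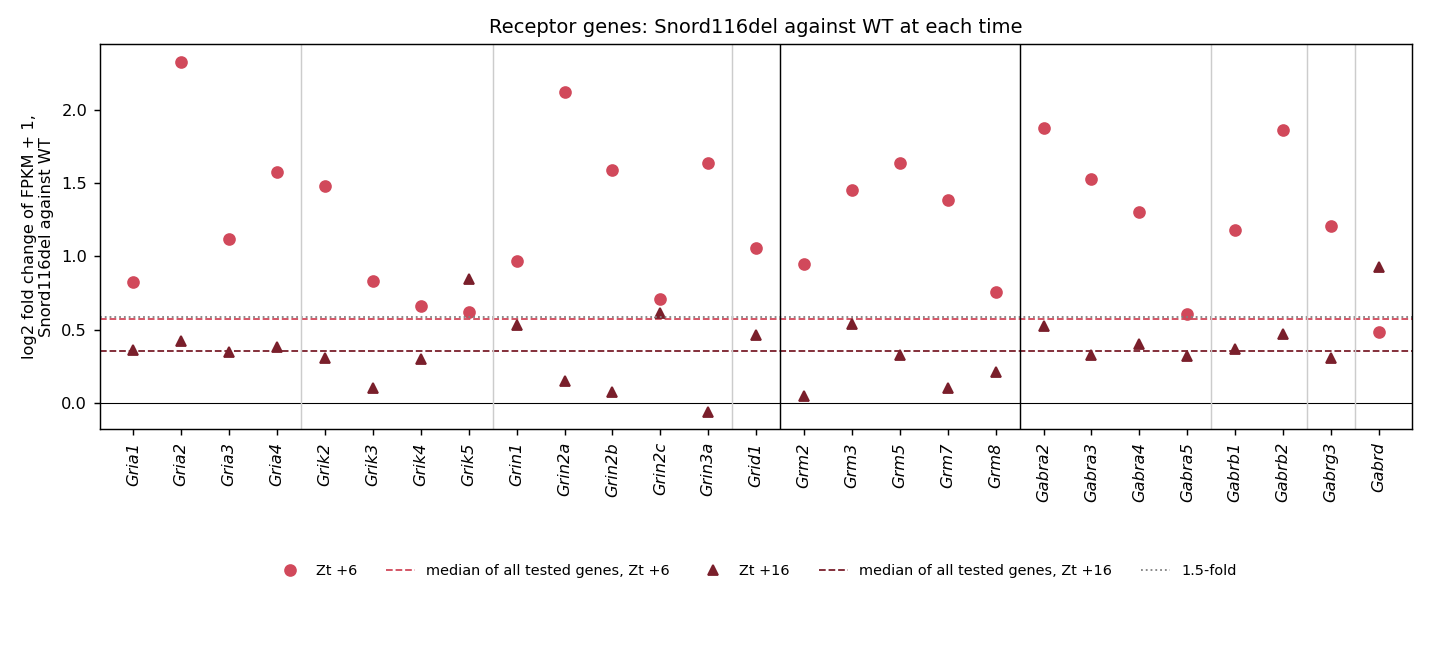
Log2 fold change of FPKM + 1, *Snord116del* against WT (y), for 27 of the 31 tested receptor genes at Zt +6 (circles) and Zt +16 (triangles). Dashed lines are the medians of all tested genes (0.57 and 0.35) and the dotted line is 1.5-fold: 26 of the genes shown lie above it at Zt +6 and 3 at Zt +16.

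These differences were uneven within families, which can be read as each gene's share of the summed FPKM of its family, a quantity that does not depend on how the groups were scaled. At Zt +6 *Gria2* made up 23.1% of the AMPA sum in WT and 42.7% in *Snord116del*, against 16.4% and 17.4% at Zt +16. Of the kainate sum, *Grik2* had 9.57% and 18.4% at Zt +6 and 6.06% and 5.24% at Zt +16. At Zt +6 *Grin1* accounted for 71.3% of the NMDA sum in WT against 55.2% in the mutant, and at Zt +16 for 86.9% against 87.7%. Among the GluN2 genes, *Grin2a* held 41.6% in WT against 54.1% in *Snord116del* at Zt +6, and 25.8% against 23.0% at Zt +16. For *Gria2*, *Grik2*, *Grin1* and *Grin2a* alike, the share in WT at Zt +6 lay between that of the mutant at Zt +6 and those of the Zt +16 groups. Of the alpha subunit genes, *Gabra5* had 29.9% in WT against 14.3% in *Snord116del* at Zt +6, and 35.6% against 32.2% at Zt +16. Among the gamma and delta genes, whose products can take the same place in the receptor, *Gabrd* had 58.5% in WT against 36.5% in *Snord116del* at Zt +6, and 63.6% against 67.8% at Zt +16. Of the beta subunit genes, *Gabrb1* had 27.9% and 19.6% at Zt +6 and 26.6% and 26.1% at Zt +16. Transcript length moved with some of these shares, since *Gria2* has the longest AMPA transcript, of 6955 bases, but *Gabra2*, with the shortest of the tested alpha genes, had 8.39% and 12.3% of the alpha sum at Zt +6.

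**Figure D4:**
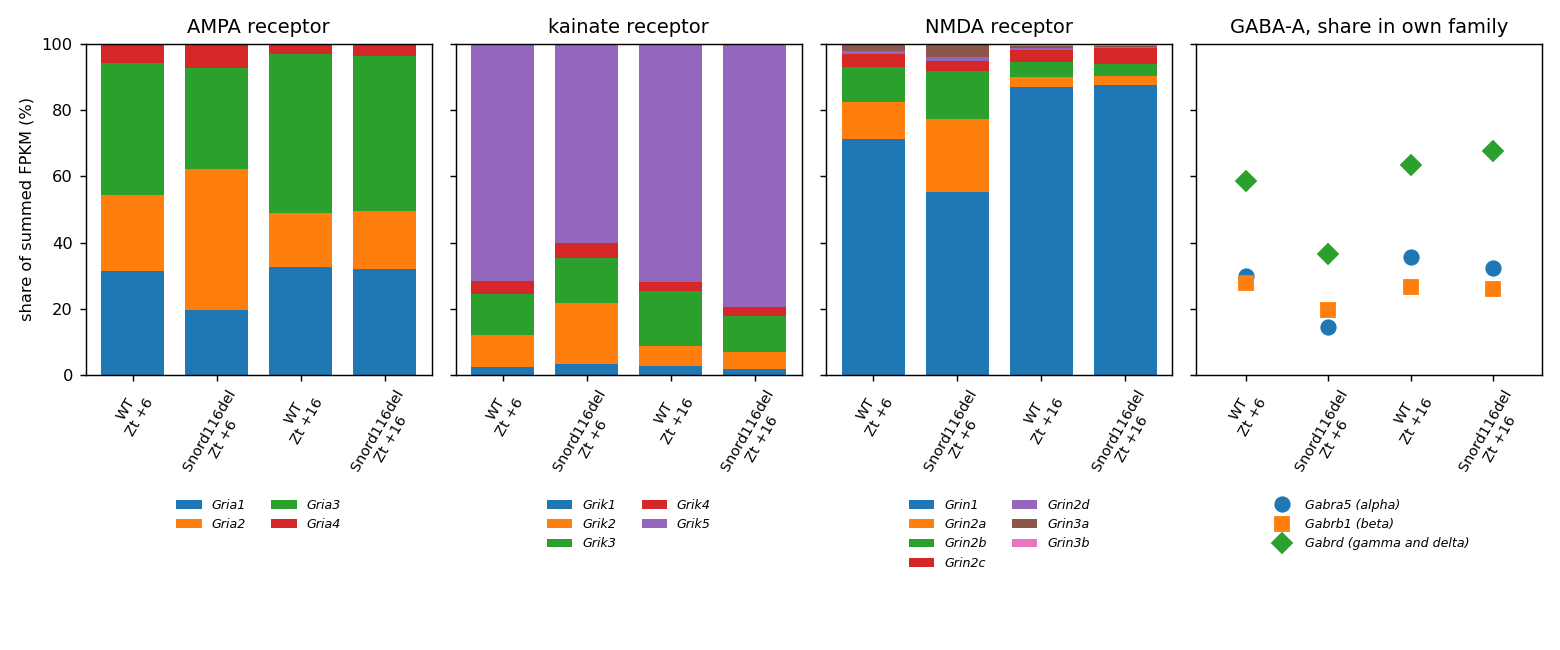
Share of each gene (y, %) in the summed FPKM of the AMPA, kainate and NMDA genes (stacked bars), and of *Gabra5*, *Gabrb1* and *Gabrd* in that of the GABA-A alpha, beta, and gamma and delta genes (points), for the 4 groups (x), 1 value per group with no error. In the mutant group at Zt +6 the shares of *Gria2* (42.7%), *Grik2* (18.4%) and *Grin2a* are higher, and those of *Grin1*, *Gabra5*, *Gabrb1* and *Gabrd* lower, than in the other 3 groups.

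The change at Zt +6 was related to transcript length in the whole table. Across 10165 tested genes the Spearman rho of length and log2 fold change was 0.628, with medians of -0.20 in the shortest quintile of genes and 1.14 in the longest. Receptor transcripts are long, with a median of 4820 bases over the 31 genes against 3085 over all tested genes, and 14 of the 31 lay in the longest quintile. Within the 31 the rho was 0.223. After the trend with length was removed, 10 receptor genes stayed above 1.5-fold, against 12.6% of all tested genes. They included *Gabra2*, *Grin2a*, *Gria2*, *Gabra3*, *Grm3*, *Gabrb2* and *Gabrb1*, from 1.48 for *Gabra2* down to 0.62 for *Gabrb1*. Of the 10, 7 are GABA-A genes, and the class medians were then 0.15 for ionotropic, 0.42 for metabotropic and 0.68 for GABA-A genes. *Gabra2*, with a transcript of 2392 bases, was the shortest of the 31 and among the most different. *Gabra5* and *Gabrd*, of 2653 and 2707 bases, were the next shortest and among the least different. The part of transcript length in the receptor values was not tested beyond this.

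**Figure D5:**
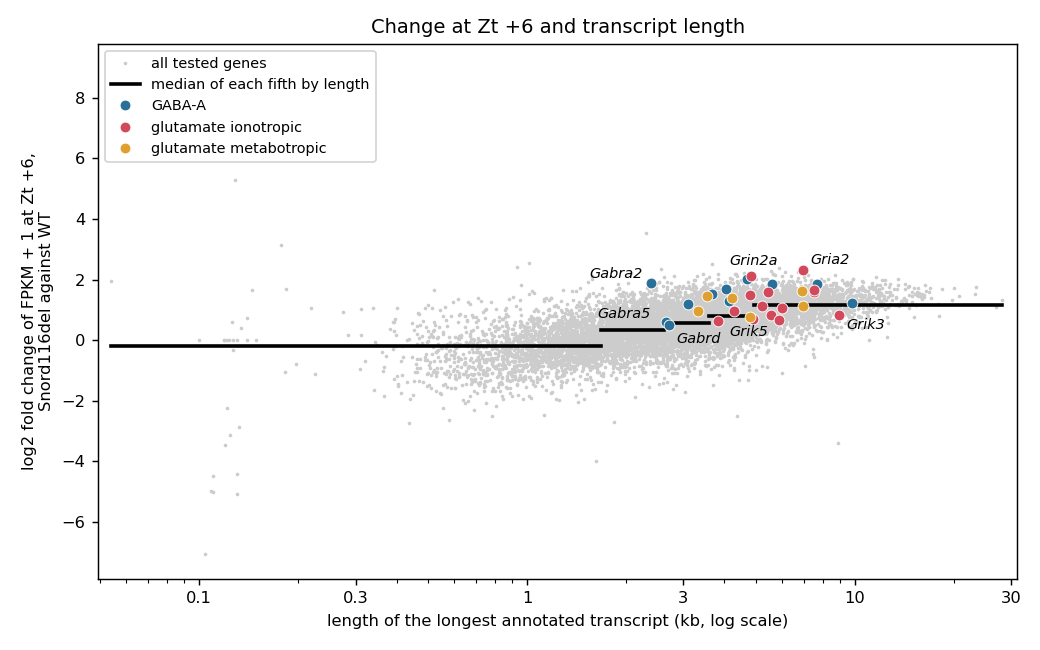
Log2 fold change of FPKM + 1 at Zt +6, *Snord116del* against WT (y), against the length of the longest annotated transcript (x, kb, log scale), for all 10165 tested genes with a length (grey) and the 31 receptor genes (coloured by class). Black bars are the medians of quintiles of all tested genes by length, from -0.20 in the shortest to 1.14 in the longest; *Gabra2*, *Grin2a* and *Gria2* lie above them.

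At Zt +16, in the dark phase, 4 of the 31 receptor genes were called higher in *Snord116del* and 0 lower, against 19.0% and 0.204% of all tested genes. They included *Gabrd*, at 12.1 and 23.8 FPKM, *Grik5*, at 13.0 and 24.1, and *Grin2c*, at 1.12 and 2.25. The log2 fold changes of these were 0.93, 0.84 and 0.61. *Gabrd* and *Grik5* were thus the 2 receptor genes that were further apart between genotypes at Zt +16 than at Zt +6, while the reverse held for the other 29. Medians were 0.35 for ionotropic, 0.16 for metabotropic and 0.40 for GABA-A genes, against 0.35 for all tested genes. Over all genes the summed FPKM at this time was 342188 in *Snord116del* and 216422 in WT. None of the 4 calls remained where the groups were scaled to the same median or the same sum.

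Time of day was then compared within each genotype. In WT, 13 of 31 receptor genes were lower at Zt +16 than at Zt +6 by the fold rule and 0 were higher, against 10.3% and 5.71% of all tested genes. They included *Gabra2*, *Gabra3*, *Gabrb1*, *Gabrb2*, *Gria2*, *Gria4*, *Grik2*, *Grin2a*, *Grin2b*, *Grm5* and *Grm7*. *Grin2a* and *Grin2b* had the largest differences, at -1.49 and -1.13, and *Gabra2* followed at -0.96. *Gabrd* and *Grin1* were not called, at -0.15 and -0.09. The class medians were -0.40, -0.55 and -0.72 for ionotropic, metabotropic and GABA-A genes, against -0.04 for all tested genes. Long transcripts were also lower at Zt +16 in WT over the whole table, with a rho of -0.486 between length and log2 fold change.

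In *Snord116del*, 27 of 31 receptor genes were lower at Zt +16 than at Zt +6 and 0 were higher, against 39.1% and 25.0% of all tested genes. For the 5 genes that passed the filter only through *Snord116del* at Zt +6, a fall from that group was favoured by the filter. Without them 22 of 26 were lower and 0 higher, against 32.9% and 28.2% of all genes tested with the filter so changed. The 4 that were not called were *Gabrd*, *Grik5*, *Grin1* and *Grin2c*. *Grin2a* was again the most different, at -3.47, followed by *Gria2* at -2.79 and *Grin2b* at -2.65. The medians were -0.97, -1.52 and -1.76, against -0.24 for all tested genes. The comparisons at Zt +6, of genotype and of time, share the Zt +6 groups, and so their values for a gene are not independent of each other.

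The balance of excitatory and inhibitory subunit genes was read from their summed FPKM. Ionotropic genes summed to 1.63 times the GABA-A genes in WT against 1.38 times in *Snord116del* at Zt +6, and to 1.85 against 1.68 times at Zt +16. This difference between genotypes depended on the measure. Without the highest gene of each class by mean FPKM, the ratio at Zt +6 was 1.42 in WT and 1.41 in *Snord116del*, and as a ratio of the medians of the tested genes it was higher in *Snord116del* (0.953) than in WT (0.621). Between genotypes at Zt +6 the ionotropic sum was 2.56 times as high in *Snord116del*, the metabotropic sum 3.16 times and the GABA-A sum 3.02 times. Counted by gene, the median log2 fold change at Zt +6 was lower for ionotropic than for GABA-A genes by 0.44 over the 31 genes, but with all 45 genes in the medians ionotropic genes were higher by 0.039. The GABA-A class loses 8 low genes to the filter and the ionotropic class 4.

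Proteins that anchor the receptors or supply their transmitter were read from 4 lists. Of 32 tested genes for auxiliary and scaffold proteins of glutamate receptors, 25 were called higher in *Snord116del* and 1 lower, with a median log2 fold change of 1.19 at Zt +6, where 49.3% of all tested genes were higher and 7.62% lower. In this list 3 genes passed the filter only through *Snord116del* at Zt +6, as did 2, 1 and 0 in the 3 lists that follow. *Homer1*, a scaffold of metabotropic receptors, was at 11.3 and 53.5 FPKM at Zt +6 and at 3.49 and 4.86 at Zt +16. *Neto2*, an auxiliary subunit of kainate receptors, was at 1.56 and 9.47 FPKM at Zt +6 and at 0.909 and 1.38 at Zt +16. Of 19 genes for GABA-B receptors and for partners and scaffolds of GABA receptors, 13 were higher and 0 lower, with a median of 1.08. *Gabbr2*, a GABA-B receptor subunit, was at 27.3 and 100.4 FPKM at Zt +6 and at 16.1 and 19.9 at Zt +16. *Nlgn2*, an adhesion protein of inhibitory synapses, was at 5.05 and 17.6 FPKM at Zt +6 and at 2.05 and 2.74 at Zt +16.

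Of 8 tested genes for glutamate release and uptake, 7 were higher at Zt +6 and 0 lower. The astrocytic glutamate transporters *Slc1a3* and *Slc1a2* led them, at 16.2 and 58.7 FPKM and at 59.2 and 188.6 FPKM. At Zt +16 they were at 6.73 and 7.85 FPKM and at 31.5 and 47.8 FPKM. Of 8 genes for the synthesis, release and uptake of GABA, 6 were higher and 1 lower. The gene that was lower was *Slc32a1*, the vesicular GABA transporter, at 60.4 and 18.8 FPKM at Zt +6 and at 127 and 258 at Zt +16. The receptor genes for GABA and this gene of its release therefore differed in opposite directions between genotypes at Zt +6. At Zt +16 the 4 lists had 4 of 32, 5 of 19, 2 of 8 and 2 of 8 tested genes called higher and 0 lower, against 19.0% and 0.204% of all tested genes. Between times in WT they had 13, 5, 4 and 2 genes lower and 1, 0, 0 and 1 higher at Zt +16, where 10.3% of all tested genes were lower and 5.71% higher. In *Snord116del* they had 23, 12, 6 and 6 lower and 1, 3, 0 and 1 higher, against 39.1% and 25.0%.

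Markers of cortical cell types were read beside these values, and their counts stand against 49.3% of all tested genes called higher and 7.62% lower at Zt +6. Neuron markers (7 measured) summed to 681 and 960 FPKM in WT and *Snord116del* at Zt +6 and to 596 and 799 at Zt +16, and 4 of 7 were called higher at Zt +6. Excitatory neuron markers (7) summed to 776 and 556 FPKM at Zt +6 and to 871 and 1682 at Zt +16, and 4 were higher and 1 lower at Zt +6. Most of these sums came from the 1 marker called lower, at 642 and 362 FPKM at Zt +6 and 787 and 1530 at Zt +16. The other 6 all had higher values in *Snord116del* at Zt +6. Interneuron markers (9) summed to 634 and 466 FPKM at Zt +6 and to 1051 and 1889 at Zt +16, with 2 higher and 4 lower at Zt +6. *Sst* alone gave 291 and 193 FPKM of these sums at Zt +6 and 571 and 1055 at Zt +16. The summed FPKM of all genes at Zt +16 was also higher in *Snord116del*, at 216422 in WT and 342188 in *Snord116del*. Astrocyte markers (7) summed to 51.1 and 149 FPKM at Zt +6 and to 32.5 and 46.0 at Zt +16, and all 7 were called higher at Zt +6. No marker of these lists was listed at 0 in all groups. All astrocyte markers thus differed in the direction of the receptor genes and 4 of 9 interneuron markers in the opposite one. With the trend with transcript length removed, the median log2 fold change at Zt +6 went from -0.26 to -0.036 for interneuron markers. For astrocyte markers it went from 1.34 to 0.56. The part of cell composition in the receptor values was not tested. For both mutants and 1 of 3 WT animals of Zt +6 the labels name a different version of the table than for the other mice, and the part of this in the receptor values was not tested.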

How the data were processed

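The authors aligned RNA-seq reads to mm9 with TopHat2 (2.0.5) and deposited 1 Cuffdiff (2.0.2) FPKM value per gene and group. Samples were put in groups by the labels. The deposited log2 fold changes and q-values are the authors' own comparison and were not used. For ChIRP-seq the authors aligned reads with Bowtie2 (2.0.0), called peaks with MACS (1.4.2) in each library against a WT input library, and kept those that passed a false discovery rate of 5% and a 20-fold enrichment over input. That fold is a ratio, deposited with the peaks by the authors, and was used here only for a stricter peak threshold; the positions of replicate 2 came without it. The WT input library itself was not analysed here.

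The receptor genes and gene lists were chosen with earlier results of these data known. Genes were called by a fold rule (FPKM + 1 at least 1.5-fold apart, at least 1 FPKM in the higher group, average of 1 FPKM or more over the 4 groups), since 1 value per group allows no test. A design with limma was foreseen for values per mouse and could not be run. The depth behind each FPKM value is unknown, so no interval could be given. Genes named with values are those past the fold rule, those beside the Prader-Willi domain, the highest of each family, and the 2 with the largest change of each pathway list at Zt +6. The pathway lists held 35, 19, 9 and 8 genes, and the neuron marker *Map2* was not analysed here. Some genes are counted in the totals but are not reported here by name. Genes were matched by symbol to GENCODE vM1 on NCBIM37, the assembly of mm9, which named 21853 of the 23235 genes. Transcript length is that of the longest annotated transcript, and its trend was removed by a lowess fit (fraction 0.3). Sequences came from NCBIM37. The counts of A or T runs (at least 20 bases), of exon ends and of matches in the genome were added after the data were examined. Intervals are exact binomial. Alternatives covered the pseudocount, the filter, the scaling, the fold, transcript length, the classes and the peak rules. The fold rule was tested on simulated data. The software was Python 3.11.15 with scipy 1.17.1, numpy 2.4.6, statsmodels 0.14.6, pandas 2.3.3 and, for figures, matplotlib 3.10.9.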

Additional observations from a re-analysis of the deposited data

Results flagged for a closer look

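A pair of receptor genes differed in opposite directions in the comparisons set side by side, and neither difference was tested, since each group has 1 value. *Grin3a* was higher in *Snord116del* than in WT at Zt +6 (4.21 against 0.673 FPKM) and lower at Zt +16 (0.137 against 0.187 FPKM), with log2 fold changes that differ by 1.70. Both Zt +16 values are below 1 FPKM. *Grik3* was at 2.94 FPKM at Zt +6 and 2.97 at Zt +16 in WT, and at 6.01 and 3.26 in *Snord116del*, so that the log2 fold change of Zt +16 against Zt +6 was higher in WT by 0.73. The WT part of it is 0.01 on the log2 scale.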

How the results depend on the processing

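No paired analysis was possible because the table holds 1 value per group and its columns carry no replicate numbers, and for the same reason no mouse could be left out. Direction at Zt +6 depended on scaling and length. Sign changes are given here only for genes called before the change of setting. With groups scaled to the same median (all-gene median 0.57 before and -0.06 after), 18 receptor genes stayed higher in *Snord116del* (15.0% of all tested genes), and *Gabra5* (-0.15) and *Grik5* (-0.18) changed sign. With the length trend removed, 10 stayed, and *Gabrg3* (-0.085), *Gria1* (-0.18), *Grik3* (-0.43), *Grik4* (-0.39), *Grik5* (-0.11), *Grin2c* (-0.21) and *Grm8* (-0.15) changed sign. In *Snord116del* over time, *Gria1* (0.10), *Grid1* (0.14), *Grik3* (0.80), *Grik4* (0.36) and *Grm8* (0.22) did so. There the 27 genes called lower at Zt +16 became 19, against 24.9% of all tested genes, and 1 was called higher, against 24.9%. The ionotropic median was then 0.01, against -0.97. With groups scaled to the same median, 20 were lower (26.5% of all tested genes) and 1 higher (35.0%). With the same sum 31 were lower (66.6%), and with a fold of 2 it was 20 (26.1%). At Zt +16 the 4 genes called higher became 8 with a pseudocount of 0.1 (30.3% of all tested genes) and 0 with the same median, the same sum, a fold of 2 or the length trend removed. In WT over time the 13 genes called lower became 25 with the same sum (29.0% of all tested genes), 2 with a fold of 2 (2.32%) and 8 with the length trend removed (6.67%).

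The median of ionotropic minus GABA-A genes at Zt +6 was -0.57 with a pseudocount of 0.1 and 0.039 with no filter, against -0.44. Over time it was -0.075 with no filter and 0.21 with metabotropic genes included in WT, against 0.32, and 1.11 with a pseudocount of 0.1, 0.061 with no filter, 0.49 with the same sum and 0.31 with metabotropic genes included in *Snord116del*, against 0.79. The excitatory to inhibitory ratio without the highest gene of each class was 1.42 for WT against 1.41 for the mutant at Zt +6, which removed the difference of 1.63 against 1.38, and 1.42 against 1.27 at Zt +16. As a ratio of medians it was 0.621 and 0.953 in WT and *Snord116del* at Zt +6, so that the direction between genotypes turned, and 0.547 and 0.552 at Zt +16, below 1 in all 4 groups. Genes with a replicated peak numbered 6 with direct overlap and 19 within 50 kb, against 11. Of 740 alternative values of the 27 genes reported singly, 631 kept the call or its absence, 72 lost the call and 23 gained it. The other 14 were called values that changed sign. Sign changes of values that were not called were not counted. A filter without *Snord116del* at Zt +6, chosen after seeing the data, left 25 of 26 genes higher at Zt +6, against 44.0% of all genes tested with it. Except where fewer genes were tested, the cause was not tested.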

Other observations

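Other cell types of the cortex and its surroundings were read from marker lists, as called genes of *Snord116del* against WT at Zt +6 and summed FPKM in WT and *Snord116del* at Zt +6 and in WT and *Snord116del* at Zt +16. Of all tested genes, 49.3% were called higher in that comparison. Oligodendrocyte markers had 3 of 7 higher, with sums of 486, 759, 759 and 1106 FPKM. Microglia markers had 4 of 7 higher, with sums of 68.4, 100.4, 78.1 and 145.0 FPKM. Endothelial markers had 5 of 5 tested genes higher, with sums of 38.8, 74.1, 46.1 and 62.4 FPKM, but 3 of the 5 passed the filter only through *Snord116del* at Zt +6. Choroid plexus markers summed to 203 and 187 FPKM at Zt +6 and to 26.4 and 31.7 at Zt +16, and 1 of 2 tested genes was higher. Markers of striatum had 5 of 6 tested genes higher, with sums of 172, 174, 290 and 477 FPKM. Those of hippocampus (2 of 4), cerebellum (2 of 4) and thalamus (2 of 2) summed to at most 33.8 FPKM in any group. Among the interneuron markers, *Gad1* and *Gad2*, which encode the enzymes of GABA synthesis, were higher in *Snord116del* at Zt +6 (10.7 and 27.5 FPKM, and 5.36 and 15.3 FPKM), while *Calb2* (21.5 and 4.40 FPKM), *Slc32a1* and *Sst* (291 and 193 FPKM) were lower.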
